A study of Mus musculus with 6 samples.

Results

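The genes described here license DNA replication origins: the 6 subunits of the MCM2-7 helicase (Mcm2, Mcm3, Mcm4, Mcm5, Mcm6 and Mcm7), its loaders Cdc6 and Cdt1, the CDT1 inhibitor Gmnn, and Mcm10, which acts when the loaded helicase is switched on. They were taken by symbol, through the Ensembl identifiers of the count table and the GENCODE M21 gene names, and make up 10 of its 43346 genes. All 10 passed the filter on low counts, which left 14000 genes for testing. The cells were C57BL/6 MEFs (embryonic fibroblasts of the mouse) in primary culture at passage 9, which divide for a limited number of passages. They received 3 µM erastin or the solvent DMSO and were collected after 24 h, with 3 libraries for each treatment. Erastin blocks the cystine and glutamate exchanger at the cell surface and is used to bring about ferroptosis, an iron-dependent death of cells by lipid peroxidation. Both treatments shared a serum-containing medium with 2-mercaptoethanol, and the labels name no genetic change. They do not say whether equally treated libraries came from separate embryos or cultures, so p-values measure only the spread between these libraries, which may be technical.

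Licensing is the step that allows each origin to fire a single time in a cell cycle. In G1 the origin recognition complex (ORC), CDC6 and CDT1 load MCM2-7 rings onto DNA as inactive double hexamers. From S phase onward CDT1 is degraded or held by geminin, the product of Gmnn, so no new rings are loaded, while CDC45 and the GINS complex convert loaded rings into moving helicases. Many of these genes are transcribed under control of E2F factors as cells enter the cycle, and MCM proteins are widely used as marks of cells that have not left it.

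Depth and identity of the libraries bear on the low-abundance members. Total counts ran from 13333911 to 20509970, so that 3 reads, taken as the detection floor, were worth 0.146 to 0.225 CPM (the reads of a gene scaled to the size of its library); this floor covers counting error only. All 10 fibroblast markers were above 1 CPM in every library, and their summed level was 35430 to 38490 CPM with DMSO and 25450 to 26900 CPM with erastin. The 5 epithelial markers summed to 2.18 to 3.25 CPM with DMSO and 2.00 to 3.17 with erastin, the 5 leukocyte markers to 22.0 to 41.3 and 26.8 to 55.7, and the pluripotency markers Pou5f1 (0 reads in every library) and Nanog to at most 0.233. The 4 endothelial genes summed to 4.65 to 7.09 CPM with DMSO and 13.2 to 16.4 CPM with erastin, with Pecam1 and Cdh5 under 1 CPM everywhere. The 5 muscle and neural genes, with nearly all of the reads in Des, summed to 36.5 to 45.7 and 65.0 to 68.8 CPM. Of all these markers only Pou5f1 had 0 reads throughout. What part such shifts play in the results was not tested. In bulk RNA a lower level in each cell and a smaller share of cells with the transcript cannot be told apart.

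Licensing transcripts were mostly lower after erastin, but the members did not move as one. In edgeR's quasi-likelihood test, with a threshold of 0.05 on Benjamini-Hochberg adjusted p-values over all genes tested, 8 of 10 were lower, against 21.5% of all genes, and 1 of 10, Cdt1, was higher, against 21.6% of all genes. The erastin and DMSO values did not overlap for 9 of the 10, against 52.5% of all genes. The median log2 fold change was -0.77, with a range of -2.24 to 0.79, against a median of -0.0014 over all genes. Mcm5 showed the steepest fall and Mcm2 the smallest difference, and the remaining helicase subunits lay between them.

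**Figure D1:**
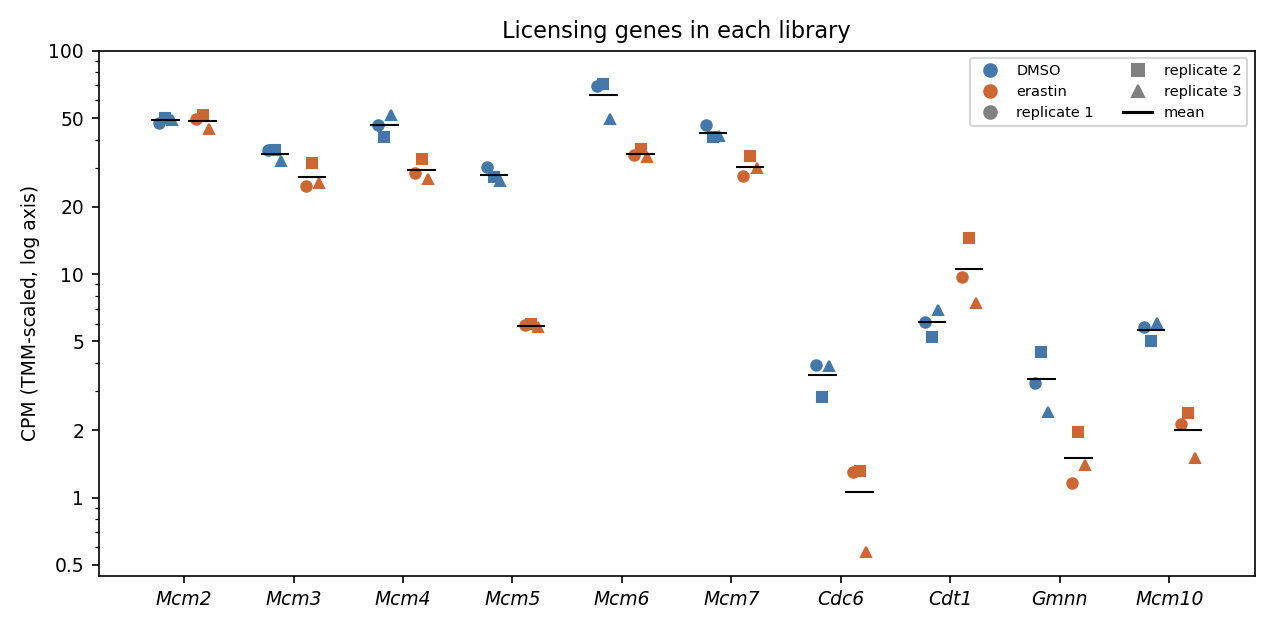
Expression of the 10 licensing genes in each library, in CPM on a log axis. Points are single libraries (shape gives the replicate number), short lines are group means, and only Mcm2 has overlapping groups.

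The MCM2-7 ring contains 1 copy of each subunit. Of the 6 subunit genes 5 were lower, against 21.5% of all genes, and 0 were higher, against 21.6% (edgeR; 0 were higher at an unadjusted p-value under 0.05 and 0 with DESeq2). Mcm5 (ENSMUSG00000005410.5, chr8:75109569-75128439, plus strand) encodes the subunit that forms, with MCM2, the gate through which the ring opens. It stood at 30.3, 27.1 and 26.2 CPM in DMSO replicates 1, 2 and 3 and at 5.91, 5.98 and 5.80 CPM in erastin replicates 1, 2 and 3. The erastin values nearly coincided, and every one of them was far below the lowest DMSO value. The fall was 4.72-fold (log2 fold change -2.24, SE 0.15, adjusted p from edgeR 4.29e-08), and it ran from -2.29 to -2.18 on the log2 scale over 15 alternative analyses, of which 9 changed scaling, filter, block, correction or tool and 6 left out a library.

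Mcm2 (ENSMUSG00000002870.7, chr6:88883474-88898780, minus strand), the partner of MCM5 at the gate, behaved differently. Its values were 47.3, 50.3 and 48.7 CPM with DMSO and 49.5, 51.8 and 44.4 CPM with erastin. The groups overlapped, with means of 48.8 ± 1.48 and 48.6 ± 3.76 CPM (SD, n = 3 each). No difference was detected (log2 fold change -0.0073, SE 0.10, adjusted p from edgeR 0.96), and the 95% interval computed from the SE, -0.20 to 0.18, leaves room for small changes in either direction; the sign turned in 6 of 15 alternatives, scaling by total count among them. Within a library, which needs no scaling, there were 0.640, 0.540 and 0.537 Mcm5 reads per Mcm2 read with DMSO and 0.119, 0.115 and 0.131 with erastin. This pair was chosen after its values were seen and is given as a description.

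Mcm6 and Mcm4 belong to the MCM4-MCM6-MCM7 core, a subassembly with helicase activity of its own. Mcm6 (ENSMUSG00000026355.7, chr1:128331590-128359664, minus strand) had 69.6, 70.8 and 49.7 CPM with DMSO and 34.3, 36.4 and 33.4 CPM with erastin. DMSO replicate 3 was well below the other DMSO libraries but still above all erastin libraries. Mcm6 was 1.83-fold lower (log2 fold change -0.87, SE 0.13, edgeR adjusted p = 5.67e-05). Mcm4 (ENSMUSG00000022673.4, chr16:15623897-15637400, minus strand) had 46.6, 41.0 and 51.5 CPM against 28.5, 32.6 and 26.7 CPM. In this gene DMSO replicate 3 was the highest library instead of the lowest. Mcm4 was 1.58-fold lower (log2 fold change -0.66, SE 0.12, edgeR adjusted p = 0.000403).

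Mcm7 and Mcm3 changed least among the subunits that passed. Mcm7 (ENSMUSG00000029730.12, chr5:138164583-138172422, minus strand), the third member of the core, had 46.3, 41.0 and 41.6 CPM with DMSO and 27.4, 33.7 and 29.8 CPM with erastin. It was 1.42-fold lower (log2 fold change -0.50, SE 0.11, edgeR adjusted p = 0.0023). Its annotated exons overlap those of Ap4m1 by 321 bp and those of Cops6 by 64 bp on the opposite strand, and how reads in such stretches were counted is not given in the sources used here. They also hold the hairpins of Mir25 and Mir93 on its own strand, which had 0 reads in all 6 libraries. Mcm3 (ENSMUSG00000041859.10, chr1:20802968-20820312, minus strand), which pairs with MCM5 in the ring, had 36.0, 35.8 and 32.2 CPM against 24.8, 31.5 and 25.5 CPM. Erastin replicate 2 came within 1 CPM of DMSO replicate 3. Mcm3 was 1.27-fold lower (log2 fold change -0.35, SE 0.12, edgeR adjusted p = 0.0348), a call that ended in 8 of 15 alternatives, with adjusted p-values from 0.013 to 0.15. Among these were the fits without DMSO replicate 1 (0.0967), DMSO replicate 2 (0.108), erastin replicate 1 (0.15) and erastin replicate 3 (0.0965).

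**Figure D2:**
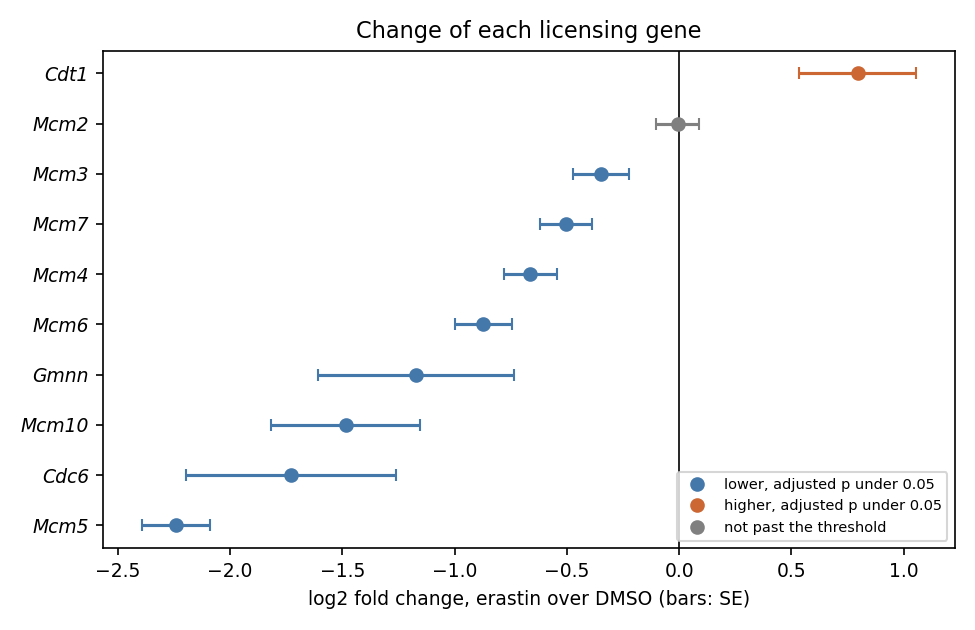
Log2 fold change of each licensing gene, erastin over DMSO, with bars of 1 SE from the edgeR fit. Mcm5 lies lowest at -2.24, Mcm2 lies close to 0, and Cdt1 at 0.79 is the one gene higher with erastin.

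The unequal changes altered the make-up of the helicase transcripts. Summed over the 6 subunits the level was 276, 266 and 249.8 CPM with DMSO and 170.4, 192 and 165.6 CPM with erastin. Per kilobase of annotated exons (the union over transcripts), Mcm5 made up 11.7% ± 0.376 of the subunit total with DMSO and 3.88% ± 0.264 with erastin (SD, n = 3 each). Mcm2, with no detected difference in its own level, went the other way, from 11.8% ± 0.799 to 18.3% ± 0.933. The mean shares of Mcm3 and Mcm7 also rose, from 15.5% to 19.0% and from 16.3% to 17.95%. Those of Mcm4 and Mcm6 went from 21.8% to 21.35% and from 22.8% to 19.5%. Shares of Mcm3, Mcm4, Mcm6 and Mcm7 lay between 15.2% and 25.5% in all DMSO libraries and between 16.9% and 21.7% in all erastin libraries. The most abundant subunit exceeded the least abundant one, per kilobase, by 2.19 to 2.23 times with DMSO and by 5.13 to 6.07 times with erastin. With length taken from the longest transcript these ranges were 1.79 to 2.02 and 7.41 to 8.38. In the erastin libraries the least abundant was Mcm5 under both lengths.

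**Figure D3:**
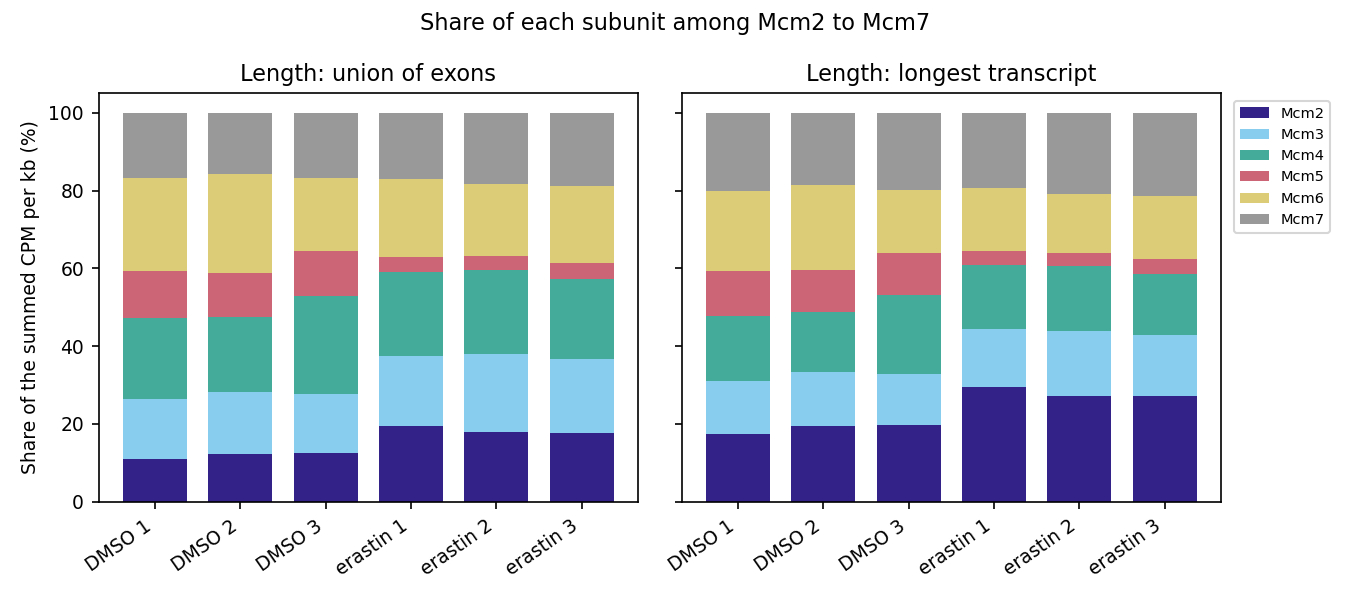
Share of each subunit in the summed CPM per kilobase of Mcm2 to Mcm7, 1 bar per library, with length taken as the union of exons (left) or the longest transcript (right). The Mcm5 segment is thinner and the Mcm2 segment thicker in all 3 erastin libraries under both lengths.

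Levels of different members can be ranked only per length. With DMSO, in CPM per kilobase of exon union, Mcm6 (13.6 ± 2.54) and Mcm4 (12.9 ± 1.46) came first, then Mcm7 (9.71 ± 0.659) and Mcm3 (9.24 ± 0.573), then Mcm2 (7.01 ± 0.212) and Mcm5 (6.98 ± 0.533; SD, n = 3 each). Each of these pairs overlapped in range, and no pair overlapped with the next. Gmnn (2.31 ± 0.712) and Cdt1 (1.94 ± 0.264) also overlapped, as did Mcm10 (0.733 ± 0.0695) and Cdc6 (0.678 ± 0.120). With erastin Mcm4, Mcm6, Mcm3, Mcm2 and Mcm7 formed a run from 8.16 down to 6.85 in which every neighbour overlapped. Cdt1 followed at 3.37 ± 1.16, above Mcm5 at 1.48 ± 0.0225, Gmnn at 1.03 ± 0.285, Mcm10 at 0.261 ± 0.0596 and Cdc6 at 0.203 ± 0.0816. This order depends on the gene model, most of all for Mcm2, whose exon union of 6956 bp is far longer than its longest transcript of 3494 bp. Per kilobase of longest transcript, the DMSO order began with Mcm6 (14.5 ± 2.72), Mcm7 (14.5 ± 0.985), Mcm2 (14.0 ± 0.422) and Mcm4 (12.9 ± 1.46), a run in which each overlapped the next, and Mcm10 no longer overlapped Cdc6. With erastin Mcm2 (13.9 ± 1.07) came first and Mcm7 (10.2 ± 1.07) next, each apart from its neighbours, ahead of an overlapping run of Mcm4, Mcm6 and Mcm3. Mcm5 then overlapped Gmnn, and Mcm10 was apart from Cdc6.

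Promoter sequence is shown for the subunit that fell most, the subunit with no detected difference, a subunit between them and the member that was higher. Windows of 300 bases, from 250 before to 50 after the annotated start, were taken from RefSeq (GRCm38.p6) and were found for 8 of the 10 members, with 9 windows in all. They were searched on both strands for E2F-type words (TTCCCGC as well as TTGGCGC, then also TTCGCGC and lastly TTGCCGC, which can share bases with each other on opposite strands), for the cell cycle homology words TTTGAA and also TTCGAA, and for the box CCAAT. An E2F-type word was found in 7 of the 9 windows, against 9.57% of 32851 promoter windows of the same length. A CCAAT was found in 7 of 9, against 37.4%, and a cell cycle homology word in 2 of 9, against 19.2%. The windows below read 5′ to 3′ along each gene, with the E2F-type words in capitals. They lie at chr8:75109259-75109558 (plus strand, Mcm5), chr6:88898731-88899030 (minus strand, Mcm2), chr1:128359656-128359955 (minus strand, Mcm6) and chr8:122567765-122568064 (plus strand, Cdt1).
Mcm5: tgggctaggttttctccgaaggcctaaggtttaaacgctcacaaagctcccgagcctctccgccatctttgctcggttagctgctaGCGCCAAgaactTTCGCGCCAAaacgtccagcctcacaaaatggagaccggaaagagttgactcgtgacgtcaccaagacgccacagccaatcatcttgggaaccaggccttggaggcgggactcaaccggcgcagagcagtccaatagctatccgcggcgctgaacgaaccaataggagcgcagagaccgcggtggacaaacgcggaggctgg
Mcm2: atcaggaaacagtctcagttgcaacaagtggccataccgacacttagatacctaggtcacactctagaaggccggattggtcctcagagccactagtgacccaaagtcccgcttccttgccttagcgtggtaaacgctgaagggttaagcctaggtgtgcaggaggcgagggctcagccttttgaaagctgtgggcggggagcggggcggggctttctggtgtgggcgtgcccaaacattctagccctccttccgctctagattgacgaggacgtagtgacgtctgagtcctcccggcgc
Mcm6: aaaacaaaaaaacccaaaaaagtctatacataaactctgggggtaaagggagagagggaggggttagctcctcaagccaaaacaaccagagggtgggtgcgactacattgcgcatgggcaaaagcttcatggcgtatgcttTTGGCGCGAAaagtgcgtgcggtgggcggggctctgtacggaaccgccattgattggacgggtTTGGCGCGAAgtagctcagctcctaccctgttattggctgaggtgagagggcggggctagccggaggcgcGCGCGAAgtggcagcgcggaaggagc
Cdt1: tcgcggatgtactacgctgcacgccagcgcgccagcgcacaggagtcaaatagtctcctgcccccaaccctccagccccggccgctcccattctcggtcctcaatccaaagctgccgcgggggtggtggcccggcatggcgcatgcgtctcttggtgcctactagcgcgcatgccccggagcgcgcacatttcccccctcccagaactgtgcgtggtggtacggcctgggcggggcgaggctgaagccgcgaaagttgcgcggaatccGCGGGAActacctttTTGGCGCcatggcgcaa

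The Mcm5 window holds 3 such words, the first at 164 bases before the start, and the Mcm6 window holds 5. None of the E2F-type words is in the Mcm2 window, which has a TTTGAA 70 bases before the start and 1 CCAAT. The Mcm10 window has no complete E2F-type word either, but it ends in TTGGCG, so a TTGGCGC crossing that edge would have been missed. Cdt1 has 2 such words, at 18 and 33 bases after the start. Mcm3 and Mcm7 (its upstream window) have 3 each and Cdc6 has 1. The windows of Cdc6 and Mcm7 lie wholly within the GENCODE genes given here, so sequence before their GENCODE starts was not searched. These matches are letters in a window, and no binding was measured.

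The loaders moved in opposite directions. Cdc6 (ENSMUSG00000017499.11, chr11:98907801-98923940, plus strand), the ATPase that joins ORC to load MCM2-7, had 3.92, 2.82 and 3.89 CPM with DMSO and 1.30, 1.32 and 0.570 CPM with erastin. Erastin replicate 3, with 11 reads, was the lowest, and no erastin library reached the DMSO range. Cdc6 was 3.32-fold lower (log2 fold change -1.73, SE 0.47, edgeR adjusted p = 0.0082).

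Cdt1 (ENSMUSG00000006585.2, chr8:122568015-122573554, plus strand), which brings MCM2-7 to the origin, had 6.11, 5.26 and 6.92 CPM with DMSO and 9.67, 14.6 and 7.46 CPM with erastin. The erastin libraries were spread widely, and the lowest, replicate 3, was only just above the highest DMSO library. Cdt1 was 1.73-fold higher (log2 fold change 0.79, SE 0.26, edgeR adjusted p = 0.0228). This call rests on single libraries: without erastin replicate 2 the log2 fold change was 0.50 (adjusted p = 0.164), and without DMSO replicate 1 or 2 it was 0.80 or 0.70 (adjusted p = 0.0548 and 0.0837).

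Gmnn (ENSMUSG00000006715.7, chr13:24751845-24761923, minus strand) encodes geminin, which binds CDT1 and stops further loading in S and G2. It had 3.25, 4.48 and 2.41 CPM with DMSO and 1.16, 1.97 and 1.40 CPM with erastin, from 25 to 81 reads per library. All erastin values were lower than all DMSO values, by a narrow margin between DMSO replicate 3 and erastin replicate 2. Gmnn was 2.25-fold lower (log2 fold change -1.17, SE 0.44, adjusted p from edgeR 0.0418), and the call ended in 8 of 15 alternatives. Without DMSO replicate 2 the log2 fold change was -0.91 (adjusted p = 0.2), and the fits without DMSO replicate 1 (0.0743), erastin replicate 1 (0.137) or erastin replicate 3 (0.0831) did not pass either.

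Counts of Cdt1 were set against those of Gmnn within each library. There were 1.88, 1.17 and 2.87 Cdt1 reads per Gmnn read with DMSO and 8.32, 7.39 and 5.33 with erastin. The erastin ratios were all above the DMSO ratios. On the log2 scale the means were 0.89 ± 0.65 and 2.79 ± 0.33 (SD, n = 3 each), a difference of 1.90. An exact two-sided permutation test gave p = 0.1, the smallest p that 3 against 3 libraries allow. Cdt1 and Gmnn each already separated the groups, in opposite directions, so this p was fixed in advance and adds no support. The ratio was chosen with results of these data known and is given as a description.

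Mcm10 (ENSMUSG00000026669.10, chr2:4989714-5012791, minus strand) is no subunit of the ring but a separate protein needed when helicases are set in motion. It had 5.81, 5.04 and 6.06 CPM with DMSO and 2.14, 2.39 and 1.502 CPM with erastin. The groups stood well apart. Mcm10 was 2.80-fold lower (log2 fold change -1.48, SE 0.33, adjusted p from edgeR 0.00225), and it passed in 15 of 15 alternatives, as did Mcm4, Mcm5, Mcm6, Mcm7 and Cdc6.

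The genes that act before and after MCM loading were taken as lists, to see which steps moved with the members. Over all genes tested, 21.5% were lower and 21.6% higher, and list counts are to be read beside these shares. In the origin recognition complex, which marks origins, 3 of 6 genes were higher and 0 lower (edgeR; 0 lower at an unadjusted p-value under 0.05 and 0 with DESeq2), with a median log2 fold change of 0.15. Orc5 was 1.67-fold higher, at 9.93 ± 2.30 and 16.7 ± 2.99 CPM, Orc2 1.39-fold, at 22.7 ± 0.896 and 31.6 ± 1.66, and Orc4 1.36-fold, at 28.3 ± 1.68 and 38.4 ± 2.76 (SD, n = 3 each; edgeR adjusted p = 0.00886, 0.00422 and 0.00518). After an offset for GC content and length Orc4 no longer passed (log2 fold change 0.20, adjusted p = 0.167), and Orc3, otherwise at -0.24, passed as lower (-0.43, adjusted p = 0.0121). Orc6 was at 20.2 ± 5.84 and 18.4 ± 0.877 CPM without passing. Orc1, the subunit whose level is regulated in the cycle, was too variable to judge, with 3.62, 1.66 and 4.04 CPM against 2.14, 3.11 and 0.0518 CPM (edgeR adjusted p = 0.407).

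Among 6 tested paralogs and partners of the ring 1 was lower and 1 higher, near the 21.5% and 21.6% of all genes. Their median log2 fold change was 0.05. Mcm8 and Mcm9, which form a separate complex used in recombination repair, stood at 5.73 ± 1.04 and 5.13 ± 2.46 CPM with DMSO and 5.42 ± 0.870 and 6.95 ± 1.64 CPM with erastin (SD, n = 3 each) and did not pass. Without DMSO replicate 2 Mcm9 passed as higher (log2 fold change 0.90, edgeR adjusted p = 0.0418). Mcmbp, whose product binds MCM subunits, was at 48.8 ± 3.72 and 55.0 ± 0.829 CPM and Kat7, a histone acetyltransferase linked to licensing, at 57.4 ± 4.53 and 54.6 ± 4.50 CPM; neither passed. Rif1, which restrains origin firing, was 1.61-fold higher (edgeR adjusted p = 0.000521), and Lrwd1, an ORC-binding protein gene, 1.31-fold lower (edgeR adjusted p = 0.0411, lost in 10 of 15 alternatives and kept, among the fits that left out a library, in the 1 without DMSO replicate 2). Gmnc, a relative of geminin, had 0 reads in all 6 libraries.

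Of 16 genes for helicase activation and firing 7 were lower and 1 was higher, against 21.5% and 21.6% of all genes. Their median log2 fold change was -0.48. Within the CMG helicase, made of CDC45, MCM2-7 and GINS, Cdc45 went from 7.36 ± 0.891 to 3.74 ± 1.34 CPM, Gins2 from 17.7 ± 3.58 to 6.64 ± 1.45 and Gins4 from 21.5 ± 1.42 to 15.6 ± 0.961 (each SD over n = 3 libraries; adjusted p from edgeR 0.0149, 9.21e-05 and 0.0153). Gins1 and Gins3 had log2 fold changes of -1.61 and -0.35 without passing, though Gins1 passed with DESeq2 (adjusted p = 0.04). The kinase genes Cdc7 and Dbf4, whose products phosphorylate MCM2-7 to start firing, were at -0.19 and -0.33 and did not pass either (edgeR adjusted p = 0.779 and 0.0674), although Dbf4 passed as lower with upper-quartile scaling (adjusted p = 0.0361) and after the GC and length offset (-0.49, adjusted p = 0.0132). Ticrr and Mtbp encode partners in 1 complex that recruits CDC45, and they changed in opposite directions. Ticrr was 5.27-fold lower, from 5.45 ± 1.09 to 1.02 ± 0.557 CPM, and Mtbp 2.63-fold higher, from 12.5 ± 2.46 to 32.8 ± 4.18 CPM (each SD over n = 3 libraries; adjusted p from edgeR 0.000408 and 8.29e-06). Clspn, a fork and checkpoint protein gene, was 4.27-fold lower (edgeR adjusted p = 0.00034). Without erastin replicate 1 the list had 4 genes lower instead of 7. Cdc45 did not pass without DMSO replicate 2, erastin replicate 1 or erastin replicate 3 (adjusted p = 0.0563, 0.0651 and 0.0503), and Gins4 did not without DMSO replicate 1 or erastin replicate 1 (0.0554 and 0.0675).

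**Figure D4:**
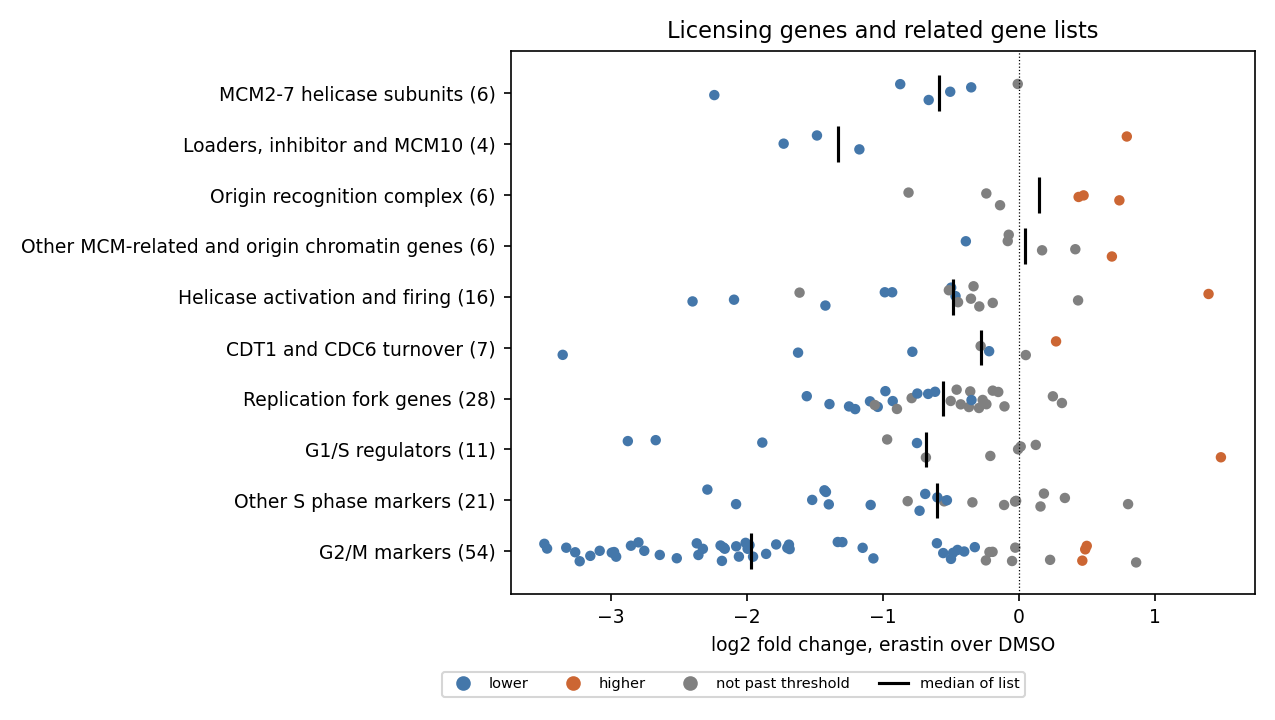
Log2 fold changes, erastin over DMSO, of the licensing genes (top 2 lines) and of 8 related lists, with the number of genes tested in brackets. Each point is a gene, coloured by its call, and black bars are list medians; these lie at 0.15 for the origin recognition complex and at -1.97 for the G2/M markers.

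CDT1 and geminin are also set by protein breakdown, which RNA counts do not measure, but transcripts of the machinery were counted. Of 7 such genes 4 were lower and 1 higher, against 21.5% and 21.6% of all genes. Fbxo5, an inhibitor of the anaphase-promoting complex that degrades geminin, went from 6.58 ± 1.53 to 0.635 ± 0.476 CPM (10.2-fold; edgeR adjusted p = 0.000119). Dtl, the receptor that directs CDT1 to a CUL4 ligase, went from 13.4 ± 2.90 to 4.34 ± 0.839 CPM (3.08-fold; edgeR adjusted p = 6.4e-05), and Skp2, part of another ligase for CDT1, from 17.3 ± 3.22 to 10.1 ± 1.15 CPM (1.72-fold; edgeR adjusted p = 0.00319; SD, n = 3 throughout). The ligase core genes moved less. Ddb1 was 1.16-fold lower and Cul4a 1.21-fold higher (edgeR adjusted p = 0.0177 and 0.00738), while Cul4b (log2 fold change 0.05) and Fzr1 (-0.28) did not pass.

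Downstream of licensing, 12 of 28 replication fork genes were lower and 0 higher (edgeR; 0 higher at an unadjusted p-value under 0.05 and 0 with DESeq2), with a median log2 fold change of -0.56, close in size to the -0.58 of the MCM2-7 genes. Pole, the catalytic subunit of the leading-strand polymerase, was 2.95-fold lower, Rfc2 of the clamp loader 1.90-fold and the DNA ligase gene Lig1 2.38-fold (edgeR adjusted p = 1.47e-05, 6.75e-05 and 0.00011). Prim2, Rpa3 and Pole3 had log2 fold changes of -0.10, -0.15 and -0.19 and did not pass. For this list and the marker lists below, the shares over all genes were 21.5% lower and 21.6% higher. Among 21 further S phase markers 11 were lower and 0 higher (edgeR; 1 higher at an unadjusted p-value under 0.05 and 0 with DESeq2), with a median of -0.60. Uhrf1 and Rrm2 were lower by 2.69 and 1.61 times, and Slbp, Ubr7 and Rrm1 lay between -0.11 and -0.02 on the log2 scale without passing. Of 54 markers of G2 and mitosis 44 were lower while 3 were higher, and the median was -1.97. Mki67, Top2a and Anln were lower by 9.59, 5 and 3.94 times, and Ctcf, Anp32e and Tmpo were higher by 1.40, 1.41 and 1.38 times. The other 7 did not pass, among them Psrc1, Ckap5 and Hmgb2, with log2 fold changes of -0.026, -0.049 and -0.19. Mcm5 and Cdc6 were the members whose log2 fold changes, -2.24 and -1.73, came nearest to that G2/M median, while Mcm2, Mcm3, Mcm4 and Mcm7 lay between -0.66 and -0.0073; the difference between the lists was not tested.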

How the data were processed

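Ribosomal RNA was depleted from total RNA and the fragmented RNA was sequenced on an Ion Proton instrument, per the labels' protocols. The authors deposited 1 table of raw read counts per gene, without normalization, with 1 column per library; no further columns of sample values exist (0 unused). HTSeq 0.9.1, SAMtools and the build mm10 are named in the submitters' processing notes; the aligner, annotation release, strand setting and treatment of shared reads are not given in the sources used here. Symbols (42462 of 43346 genes, 98%), coordinates (GRCm38, the assembly of mm10), lengths and GC content came from GENCODE M21.

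The counts went into edgeR 4.0.16 (R 4.3.3). The filter was filterByExpr (minimum count 10 in at least 3 libraries, total 15), libraries were scaled with TMM factors, and treatment was tested with glmQLFit and glmQLFTest without a block; the threshold was 0.05 after Benjamini-Hochberg adjustment over 14000 genes. SEs came from the fitted weights and posterior quasi-dispersion. The code was tested on simulated data. Groups and replicate numbers came from the titles. In pairs of libraries the chi-square per degree of freedom was at least 11.0, so none agreed within sampling noise.

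Alternatives were RLE, upper-quartile and total-count scaling, no filter, a filter of 1 CPM in 3 libraries, a replicate block, an offset for GC content and length (mgcv 1.9.3), both together, DESeq2 1.42.0, an adjusted p-value under 0.01, each library left out, another gene length, and 1 read added for the ratio. Members, lists and tests were chosen with earlier results of these data known. Named genes are all members, all ORC and MCM-related list genes, the CMG and kinase genes, in every other list the 3 with the smallest p in each direction and up to 3 that did not pass with the smallest change, neighbours with a start within 1000 bp on the opposite strand or overlapping exons, and the 5 genes most like the MCM2-7 profile. Promoter sequences came from RefSeq tables. The values of 1 gene that the rule for named genes selects are not reported here.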

Additional observations from a re-analysis of the deposited data

How the results depend on the processing

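Between 6 and 8 members were lower over all alternatives, and over the 6 analyses that each left out a library; 1 was higher, except that the 0.01 threshold gave 0 and leaving out a library 0 to 1 (0 without DMSO replicate 1, DMSO replicate 2 or erastin replicate 2). Genes called numbered 6027, with 4305 to 6104 under the alternatives. Of these, 3004 were lower, with 2151 (0.01 threshold) to 3377 (upper-quartile factors) under the alternatives. Those higher numbered 3023, with 2154 (0.01 threshold) to 3456 (total counts). Scaling moved the median of all genes to -0.055 (upper quartile) and 0.065 (total count), and the share higher among called genes from 50.2% to 44% with upper-quartile factors and 57.1% with total counts. Deviations of equally numbered libraries correlated at 0.0401, 0.00379 and -0.0055, and those of unequally numbered ones at -0.0446 to 0.0348. These values show no sign of pairing by number but cannot exclude shared cultures or days. With the replicate block 5883 genes passed and 7 members were lower, Gmnn being at -1.15 (edgeR adjusted p = 0.0553).

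Among the lists, Lrwd1, the 1 lower gene of the MCM-related list, was lost (0) with total counts, no filter, the replicate block, the GC and length offset, both together and the 0.01 threshold. With a library left out that list had 0 to 1 lower and 1 to 2 higher, the firing list 4 to 7 lower and the fork list 0 to 1 higher. The offset, alone or with the replicate block, made 1 origin recognition gene lower. Total-count scaling and the 1 CPM filter each made 1 S phase marker higher, and at the 0.01 threshold the firing list had 4 genes lower. The log2 fold change of Mcm2 was 0.0573 with total counts, 0.0108 without a filter, 0.0376 with the offset and 0.0374 with the replicate block and offset. With a library left out it ran from -0.0541 to 0.0557, that of Orc6 from -0.354 to 0.0377, Mcm8 from -0.218 to 0.0476, Gins3 from -0.844 to 0.0843 and Cdc7 from -0.554 to 0.138. The log2 difference of the Cdt1 to Gmnn ratio stayed between 1.57 and 2.21.

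Per longest transcript, DMSO and erastin shares of the helicase sum were 18.8% and 27.9% for Mcm2, 13.6% and 15.9% for Mcm3, 17.4% and 16.3% for Mcm4, 11.1% and 3.5% for Mcm5, 19.5% and 16% for Mcm6, and 19.5% and 20.5% for Mcm7. Cdc6, Gmnn, Mcm10 (29 to 91 reads per library) and Orc1 rest on few reads, which limits their precision. The cause of a changed call was not tested for any alternative.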

Other observations

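Regulators of entry into and passage through S phase were mixed. Of 11 such genes 4 were lower and 1 was higher, against 21.5% and 21.6% of all genes. Their median log2 fold change was -0.68. Ccna2, the cyclin of S phase and G2, was 7.34-fold lower (33.8 ± 6.55 to 4.61 ± 0.621 CPM), the E2F repressor gene E2f7 6.36-fold lower (6.11 ± 1.44 to 0.951 ± 0.472 CPM) and the G1/S cyclin gene Ccne1 1.68-fold lower (40.0 ± 4.14 to 23.8 ± 0.752 CPM; SD, n = 3 each; adjusted p from edgeR 1.95e-08, 0.00017 and 0.000109). Myc, a growth-promoting transcription factor gene, was 2.80-fold higher, at 46.6 ± 3.95 and 130.7 ± 14.9 CPM (adjusted p from edgeR 4.24e-08). Cdc25a, E2f3 and Cdk2 had log2 fold changes of -0.0047, 0.014 and 0.13 and did not pass.

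Genes next to 2 members were read beside them. Prkdc, the DNA-dependent protein kinase gene, starts 466 bp from Mcm4 on the opposite strand. It had 28.7, 28.0 and 26.3 CPM with DMSO and 23.3, 28.0 and 22.3 CPM with erastin; the groups overlapped, and no difference passed (log2 fold change -0.17, SE 0.13, adjusted p from edgeR 0.299), while Mcm4 was at -0.66. Ap4m1, which starts 420 bp from Mcm7 on the opposite strand, went from 10.2 ± 1.39 to 6.20 ± 1.55 CPM (1.65-fold lower; adjusted p from edgeR 0.0224, not passing without DMSO replicate 2, erastin replicate 1 or erastin replicate 3, at 0.103, 0.0856 and 0.0733). Cops6 went from 115.5 ± 4.90 to 87.9 ± 5.01 CPM (1.31-fold lower; adjusted p from edgeR 0.0013; SD, n = 3 each). Both share exon sequence with Mcm7, and the part of shared reads in these values was not tested.

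The 5 genes outside the members whose centred log2 CPM over the 6 libraries lay nearest to the median profile of Mcm2 to Mcm7 were Magee1, Pebp1, Nradd, Hadha and Sumf2. Their root mean square distances were 0.0406 to 0.0573, and their log2 fold changes -0.57 to -0.52. Of the subunits themselves Mcm7 lay at 0.0479 and Mcm3 at 0.105, against 0.279 for Mcm2 and 0.847 for Mcm5. These genes were found by the same libraries, so the distances are a description.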
